A study of Homo sapiens with 18 samples.

Results

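The 47 genes described here were listed as encoding known N-myristoylated proteins other than the ARF GTPases, although the annotated starts of UNC119 and UNC119B went against that name. They were taken by gene symbol from a list of substrates of the N-myristoyltransferases that also left out proteasome and complex I subunits, and the rule used no measured value, although the list was drawn up with earlier results of these data known. Each of the 47 symbols matched 1 row of the 28266 gene rows of the count table, and 45 of them passed the filter on low counts that kept 14341 genes for testing. The genes fell into 11 role groups: 6 tyrosine kinases, 5 G-protein alpha subunits, 6 actin and membrane organisers, 5 components of protein kinase A (PKA) and AMP-activated kinase (AMPK), 6 phosphatases and calcium-binding proteins, 3 receptor adaptors, 3 ubiquitin ligases, 3 endolysosomal proteins, 2 Golgi stacking proteins, 5 mitochondrial and endoplasmic reticulum proteins and 3 lipid carriers.

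The series asked how inhibitors of N-myristoylation (NMTi) change gene expression in senescent and non-senescent cells. The cells were IMR90 ER:RAS, a human lung fibroblast line carrying a RAS oncoprotein fused to the hormone-binding domain of the oestrogen receptor. In this line 4-hydroxytamoxifen (4OHT) switches RAS on and drives the cells into senescence. The 6 groups, each of 3 bulk poly(A) RNA libraries, shared this 1 line and day 10 as the day of collection. Control cells received DMSO and senescent cells 100 nM 4OHT, both were kept for 7 days and were then given IMP1088 at 300 nM, DDD86481 at 1.5 µM or DMSO for 3 days. The control groups therefore carry the ER:RAS construct but no 4OHT, and every result rests on a single engineered line. Because the libraries are bulk samples, fewer cells of a kind and less RNA per cell cannot be told apart.

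N-myristoylation is the attachment of the fatty acid myristate to a glycine at the very start of a protein, after methionine aminopeptidase has removed the initiator methionine. The enzymes NMT1 and NMT2 carry it out, usually during translation, and prefer a small residue such as serine or threonine a few positions further on. Myristate alone holds a protein weakly on a membrane, so most of these proteins add a palmitoylated cysteine, a patch of basic residues or a protein partner. The drugs act on the modification of the proteins, whereas the measurements here are of the transcripts that encode them.

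The protein starts that the enzymes act on can be read from the annotated transcripts. In the canonical transcript, 43 of the 47 genes (91.5%) had a glycine codon at position 2, counted from 1 at the start codon, against 7.73% of the 19414 protein-coding genes with an annotated ATG start. Of these 43, serine followed at codon 6 in 34 (79.1%) and threonine in 0, where 20.7% of all glycine-2 genes had either residue. A cysteine at codon 3, the usual site of palmitate in this family, was present in 10 of the 43 (23.3%) against 4.8% of all glycine-2 genes. Since the list was built from known substrates, these shares describe the list. The first 21 coding bases are printed below for the genes that the results turn on, in the sense of the transcript, 5′ to 3′, with the glycine codon at position 2 and a serine or threonine codon at position 6 in capitals. They come from GENCODE transcripts on GRCh37, and each is given with its start codon and strand.

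The first set has cysteine at codon 3 and its genes belong to the kinase, G-protein and carrier groups.
FYN (chr6:112041252-112041254, minus strand): atgGGCtgtgtgcaatgtaag
GNAI2 (chr3:50273768-50273770, plus strand): atgGGCtgcaccgtgAGCgcc
RP2 (chrX:46696536-46696538, plus strand): atgGGCtgcttcttcTCCaag

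The next set has the glycine without that cysteine and holds members of several role groups described below.
SRC (chr20:36012557-36012559, plus strand): atgGGTagcaacaagAGCaag
MARCKSL1 (chr1:32801632-32801634, minus strand): atgGGCagccagagcTCCaag
FMNL1 (chr17:43299492-43299494, plus strand): atgGGCaacgcggccggcagc
FMNL3 (chr12:50100961-50100963, minus strand): atgGGCaacctggagAGCgcc
AKAP12 (chr6:151561698-151561700, plus strand): atgGGCgccgggagcTCCacc
HPCAL1 (chr2:10559884-10559886, plus strand): atgGGCaaacagaacAGCaag
NCS1 (chr9:132934943-132934945, plus strand): atgGGGaaatccaacAGCaag
CHCHD3 (chr7:132766695-132766697, minus strand): atgGGTgggaccaccAGCacc
GORASP2 (chr2:171785851-171785853, plus strand): atgGGCtcctcgcaaAGCgtc

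ABL1 and PRKACB use several start codons, and the canonical one lacked the glycine in both, so the canonical start is shown first and a glycine start of another annotated transcript second.
ABL1 canonical (chr9:133710834-133710836, plus strand): atgttggagatctgcctgaag
ABL1 glycine start (chr9:133589707-133589709, plus strand): atgGGGcagcagcctggaaaa
PRKACB canonical (chr1:84610045-84610047, plus strand): atggcagcttatagagaacca
PRKACB glycine start (chr1:84544009-84544011, plus strand): atgGGGaacgcggcgACCgcc

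The last pair, UNC119 and UNC119B, had no glycine at codon 2 in 5 and 1 annotated coding transcripts. Both are known as carriers that bind the myristate of other proteins.
UNC119 (chr17:26879573-26879575, minus strand): atgaaggtgaagaagggcggc
UNC119B (chr12:121148278-121148280, plus strand): atgagcgggtctaacccgaag
The counts were made per gene, so forms with and without the glycine were not separated, for ABL1, PRKACB or other members with several starts. The glycine was in 1 of 5 annotated coding transcripts of GNAI2, 2 of 4 of AKAP12 and 1 of 2 of NCS1. It was in all 18 of FYN, all 7 of SRC and all 6 of HPCAL1.

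Libraries held 16143716 to 23189950 counts, so that the limit a count of 0 allows, 3 counts, lay between 0.121 and 0.187 CPM, counts scaled to a common library total. The 47 genes together took 0.4321 to 0.5689% of the counts of a library. The labels fitted the data in that CDKN1A, CDKN2A, CDKN2B and IL1B were called higher, and LMNB1 and MKI67 lower, in 4OHT-treated cells. All 10 fibroblast markers were detected in each group, with a summed level of 24300 to 30500 CPM in control and 16500 to 16900 CPM in senescent cells with DMSO. Leukocyte markers summed to 15.3 to 20.1 and 119 to 150 CPM in the same groups, almost all of it CD68, with CD3E at 0 in every group. Epithelial markers summed to 106 to 150 and 43.6 to 50.4 CPM, endothelial markers to 31.8 to 55.3 and 19.8 to 24.3 CPM, and neuronal markers to 217 to 265 and 420 to 507 CPM. The endothelial sum fell although, of the 4 endothelial markers tested, 3 were called higher in senescence and 1 lower. With the inhibitors, senescent cells held 11500 to 12300 CPM of fibroblast and 262 to 293 CPM of neuronal markers, and control cells 29700 to 35000 and 86.6 to 105 CPM. Among the 10 fibroblast markers in control cells, each inhibitor gave 2 calls upward and 4 downward, so the sums do not give the direction of single markers. The part of these shifts in the results was not tested. On the third principal component of all genes the control DMSO libraries scored 14.8, 27.8 and 57.3, with replicate 3 the farthest out, and the counts of members called that rest on this group are also given without it.

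Per kilobase of canonical transcript, in control cells with DMSO, 5 genes exceeded 100 CPM, 22 lay from 10 to 100, 16 from 1 to 10 and 4 were under 1. MARCKSL1, a substrate of protein kinase C at the plasma membrane, led at 283 CPM per kilobase, followed by GNAI2 at 257, BASP1 at 153, CYB5R3 at 114 and DEGS1 at 102. Those 5 genes made up 53.8% of the summed level per kilobase. In senescent cells with DMSO the order changed at the top: GNAI2 stood first at 374, HPCAL1 moved from rank 14 at 29.7 to rank 2 at 228, and MARCKSL1 fell back to rank 4 at 160. AKAP12 moved from rank 16 at 28.1 to rank 7 at 86.1. GNAO1, the brain-enriched alpha subunit, and TICAM2, the Toll-like receptor adaptor, failed the low-count filter. Their libraries ranged from 0.0402 to 0.504 CPM and from 0 to 0.766 CPM, around the floor, and no change was tested for either. TICAM2 also shares 78.7% of its exonic bases with the read-through locus TMED7-TICAM2 on the same strand.

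**Figure D1:**
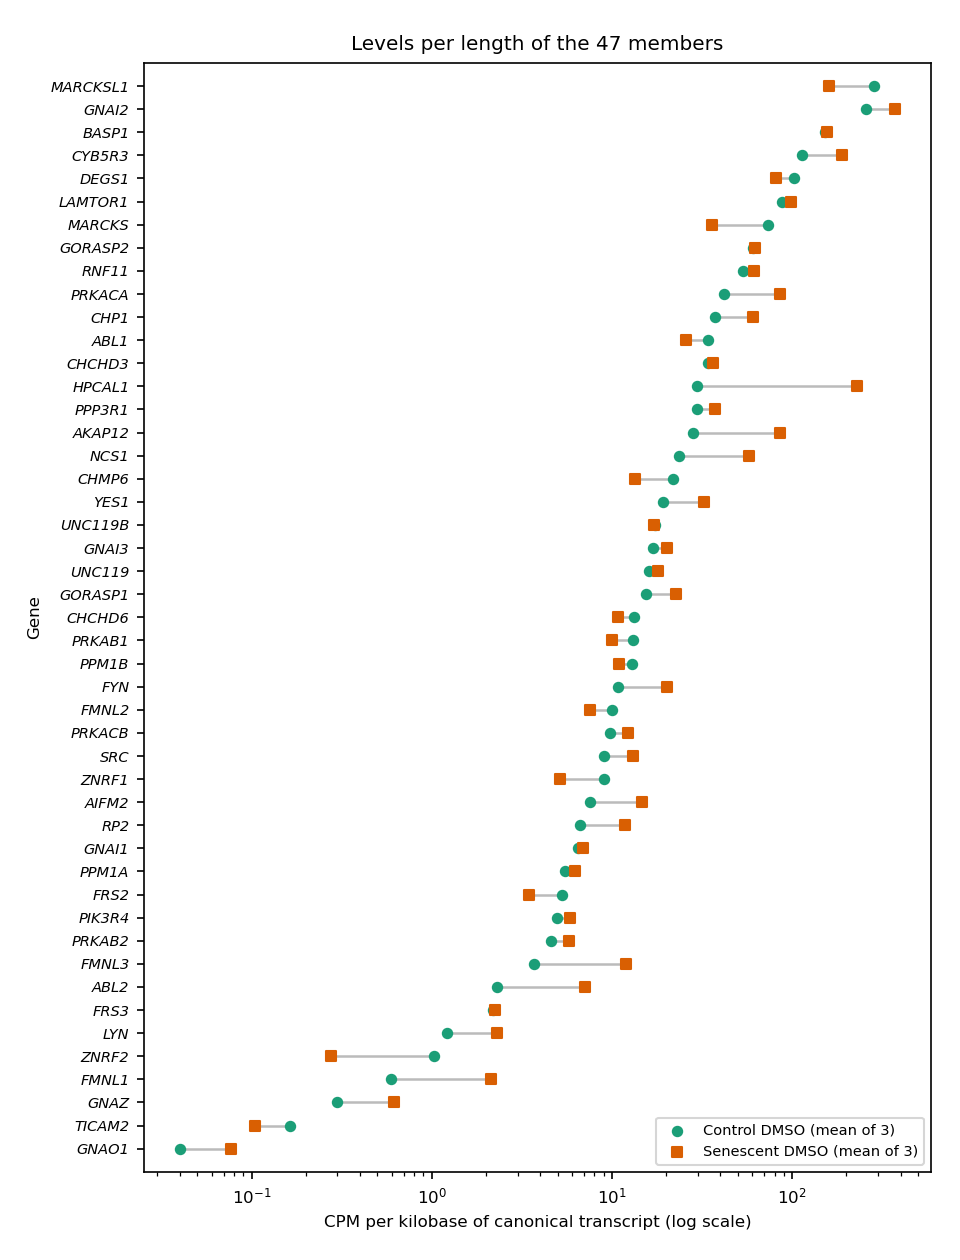
Mean level per kilobase of canonical transcript (CPM per kilobase, log axis) of the 47 genes in control (circles) and senescent (squares) cells with DMSO, 3 libraries each, ordered by the control level. HPCAL1 shows the widest gap, from 29.7 to 228, while MARCKSL1 drops from 283 to 160.

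Summed over the 47 genes, the level was 4585.1 ± 62.5 CPM (SD, n = 3) in control cells and 6248.5 ± 124 in senescent cells with DMSO. It was 4731.2 ± 88.5 in senescent cells with IMP1088 and 4777.7 ± 165 with DDD86481. In control cells the same sums were 4060.1 ± 61.7 and 4081.2 ± 24.5. The sum follows its few most abundant genes, and the groups are therefore compared gene by gene below.

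Senescence raised more of these genes than it lowered. Of the 45 genes tested, 23 (51.1%) were called higher and 11 (24.4%) lower in senescent than in control cells with DMSO, at an adjusted p below 0.05. Among all genes tested, 32.5% were called higher and 36% lower, 68.5% in either direction. The median log2 fold change was 0.25 over the 45 genes and -0.05 over all genes. In 30 of the 45, the libraries of both groups did not overlap, against 67.6% of all genes. Upper quartile scaling moved the median of all genes by -0.15 in this comparison, and under it 18 members were called higher and 12 lower. Without control DMSO replicate 3 the counts were 25 and 9. The shares of all genes above come from the main fit, and these counts from other fits are not set against them. Of the 34 calls, 28 held in each of the 6 fits that left out 1 library.

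In senescent cells, both inhibitors lowered more members than they raised. IMP1088 left 5 of the 45 genes (11.1%) higher and 21 (46.7%) lower than DMSO, with 20.6% and 23.9% of all genes called higher and lower and 44.4% in all. For DDD86481, 3 (6.67%) were higher and 20 (44.4%) lower, against 20.1% and 23.1% of all genes and 43.2% in all. Median log2 fold changes of the members were -0.30 and -0.19, while those of all genes were -0.04 and -0.04. The groups did not overlap for 35 members with IMP1088 and 25 with DDD86481, where the background shares were 61% and 52.6%. Of the calls, 21 of 26 and 16 of 23 held whichever of the 6 libraries was left out. The inhibitor comparisons share their 3 senescent DMSO libraries with each other and with the senescence comparison, so high or low values in those libraries enter all of them. Doses differed, and the inhibitors were not tested against each other.

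Fewer members were called in control than in senescent cells, and so were fewer of all genes. The shares of members called, 37.8% with IMP1088 and 35.6% with DDD86481, lay near those of all genes. IMP1088 left 4 (8.89%) higher and 13 (28.9%) lower, and the background was 16.3% and 17.4%, or 33.7% in all. DDD86481 left 5 (11.1%) higher and 11 (24.4%) lower, with 17.8% and 18.7% of all genes, or 36.6% in all. The medians were -0.09 for both inhibitors and 0.00 for all genes in both. Groups did not overlap for 18 and 19 members, against 41.4% and 43.4% of all genes. These counts depended on single libraries: without control IMP1088 replicate 1 the first came to 10 genes, and the second came to 9 without control DDD86481 replicate 1, where without control DMSO replicate 1 they were 21 and 24. Without control DMSO replicate 3 they were 12 (3 higher, 9 lower) and 10 (3 higher, 7 lower). The calls among all genes ranged from 3505 to 5892 and from 3773 to 6317 in the same fits, lowest and highest on leaving out the same libraries. Upper quartile scaling split them into 2 higher and 14 lower for each inhibitor. With the 6 libraries of the IMP1088 comparison fitted alone and paired by replicate number, 10 members were called. The count of all genes called in that fit is not given here, so the 10 members have no background. MARCKSL1, PRKAB1, PPM1B, PPP3R1, HPCAL1, RNF11 and CHCHD6 were the 7 calls lost in that paired fit (adjusted p 0.0583 to 0.137). Of the calls, 7 of 17 and 7 of 16 held in all 6 fits that left out 1 library. MKI67, a marker of cycling cells, was at 32.2, 19.8 and 12.9 CPM with DMSO, at 3.26, 3.21 and 4.42 with IMP1088 and at 5.90, 3.02 and 2.90 with DDD86481, and its part in the control results was not tested.

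**Figure D2:**
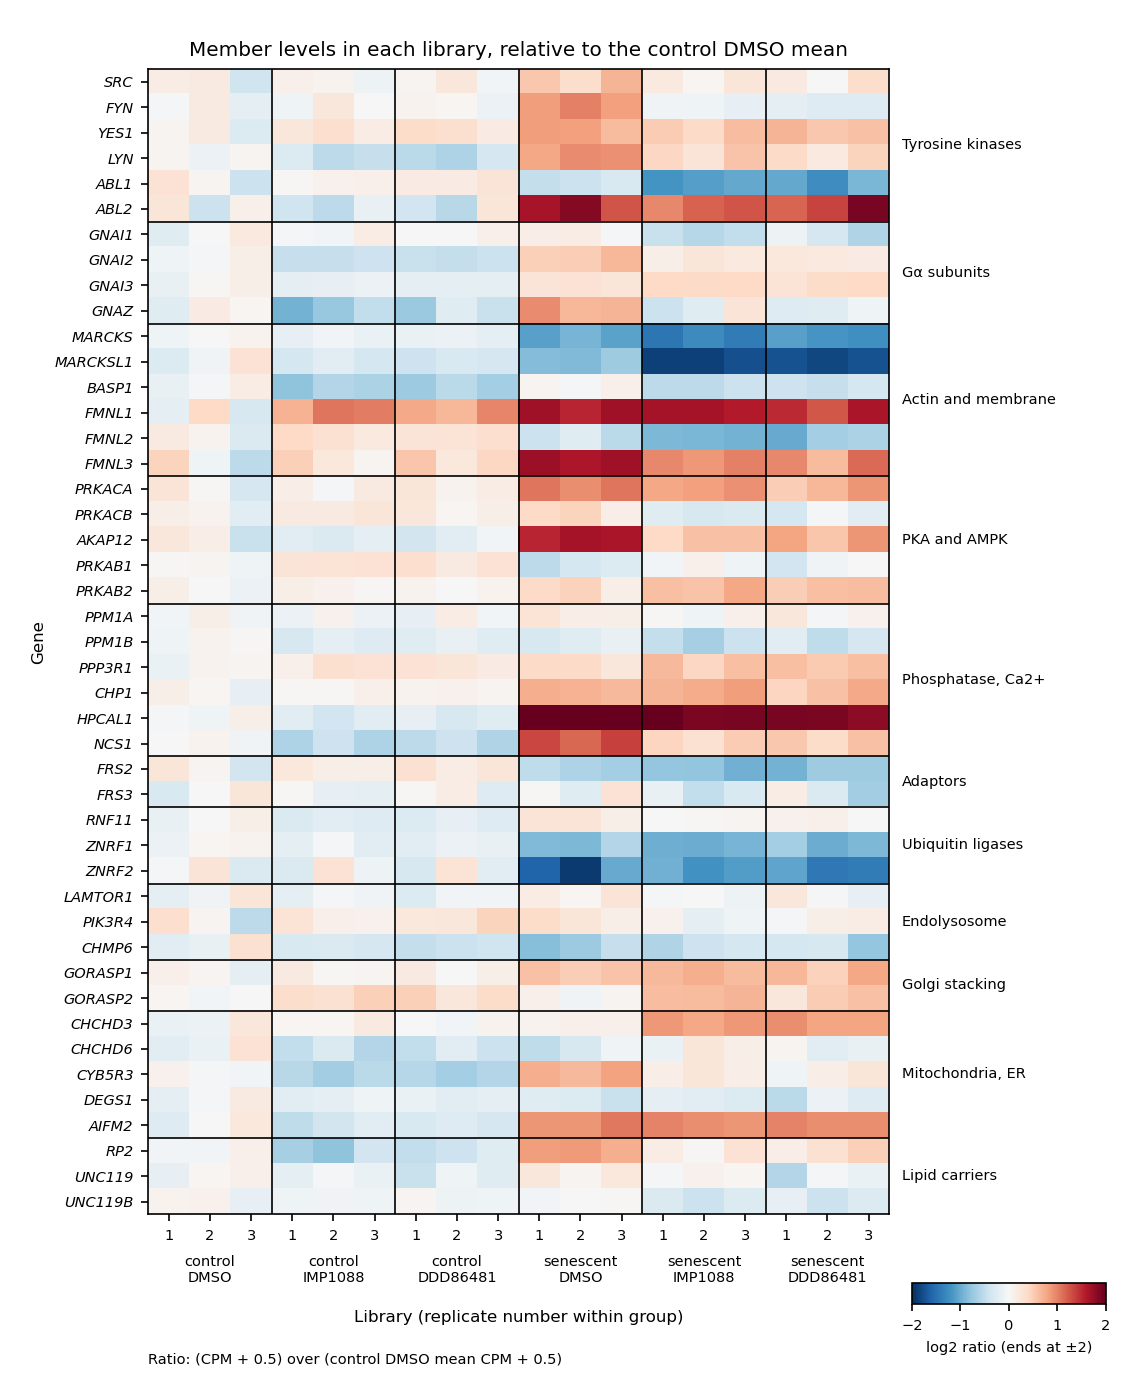
Level of the 45 tested genes in each of the 18 libraries as a log2 ratio to the control DMSO mean, with 0.5 CPM added to both, in columns by group and rows by role. The colour scale ends at 2 in both directions, beyond which HPCAL1 in senescent DMSO libraries lies. In the senescent DMSO columns most kinase, PKA and calcium-sensor rows are red, and the rows of FYN, AKAP12 and NCS1 pale in the inhibitor columns beside them.

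The difference between states was tested directly, as the effect of an inhibitor in senescent cells minus its effect in control cells. For IMP1088, 2 members had a more positive and 11 a more negative effect in senescent cells, against 12.1% and 14.2% of all genes, or 26.2% in all. For DDD86481 the numbers were 2 and 12, against 14.4% and 15.9% of all genes, or 30.3% in all. Upper quartile scaling gave 4 and 11 genes for both inhibitors and DESeq2 gave 4 and 11 for IMP1088 and 4 and 12 for DDD86481. The median difference was -0.04 for IMP1088 and -0.07 for DDD86481 over the members and 0.00 over all genes. Without control DMSO replicate 3 there were 2 and 11 for IMP1088 and 1 and 10 for DDD86481. Here too the shares of all genes are those of the main fit alone. In the fits that left out each of the 12 libraries, 12 of 13 and 9 of 14 calls held. The genes are named with their roles below.

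**Figure D3:**
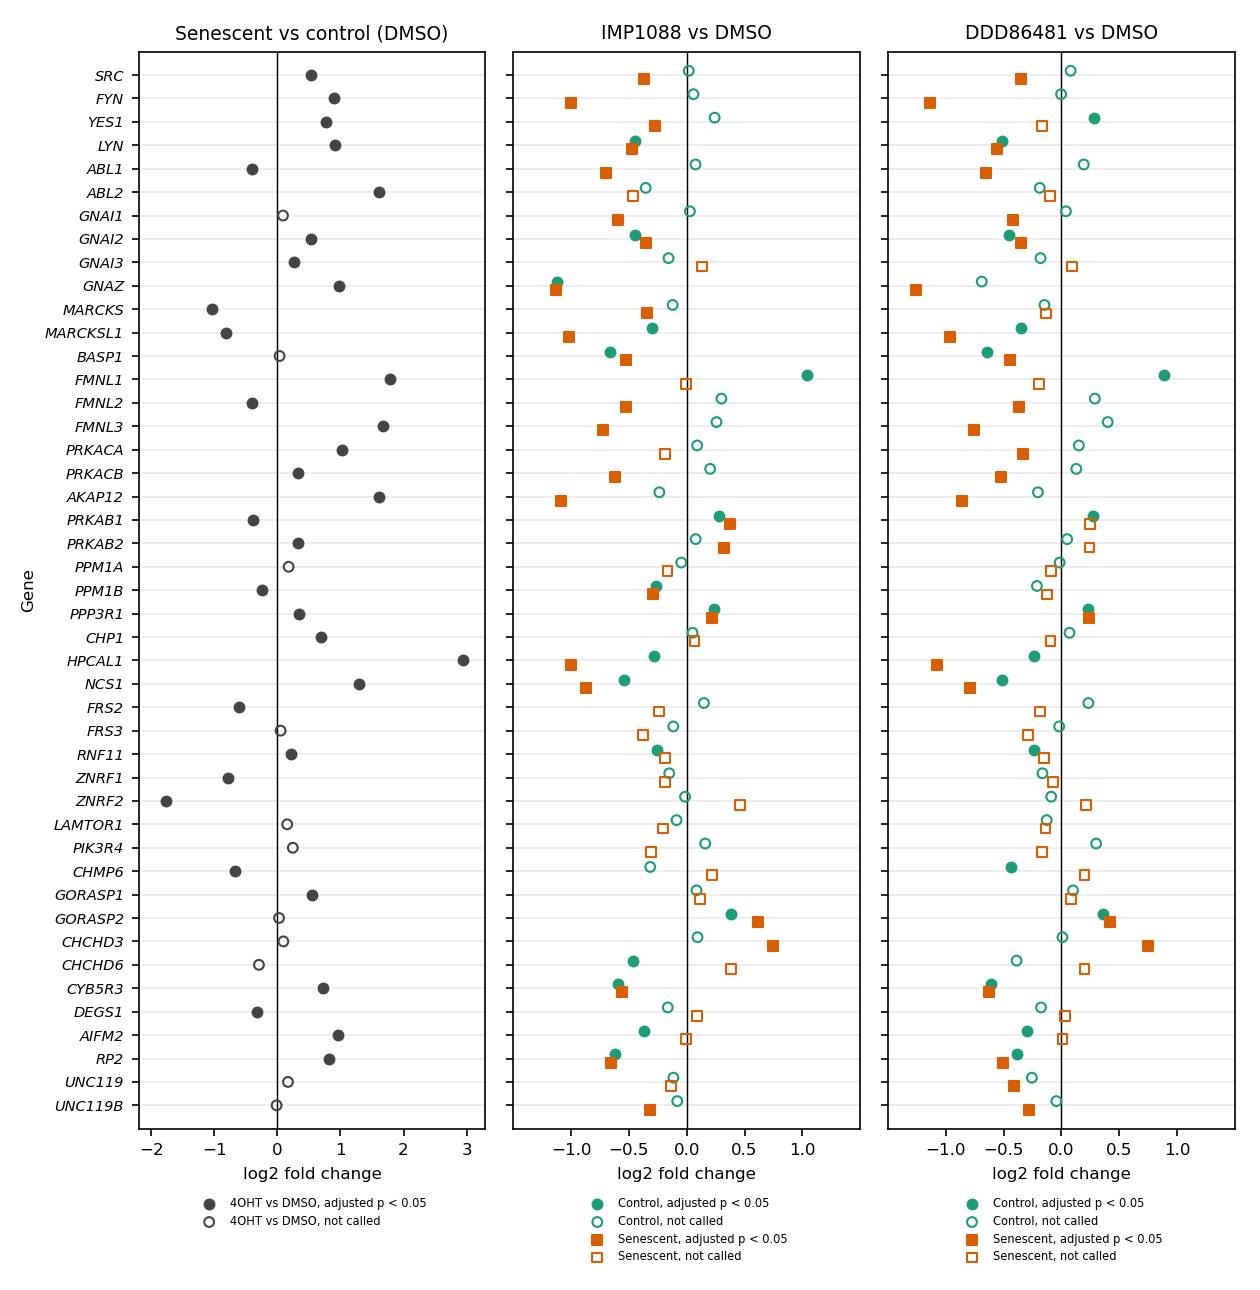
Log2 fold changes of the 45 tested genes for senescent against control cells with DMSO (left), IMP1088 against DMSO (middle) and DDD86481 against DMSO (right), circles for control and squares for senescent cells in the inhibitor panels. Filled symbols have an adjusted p below 0.05. In the inhibitor panels more filled squares than filled circles lie left of 0, with 21 and 20 genes lower in senescent and 13 and 11 in control cells.

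Among the tyrosine kinases, SRC, FYN, YES1 and LYN sit on the inner face of the plasma membrane and pass on signals from receptors and adhesion sites. In senescence 5 of the 6 tyrosine kinases were called higher and ABL1 lower, where 32.5% and 36% of all genes were. Here and in the other role groups the counts stand beside the shares of all genes given above, among them 23.9% and 23.1% lower with IMP1088 and DDD86481 in senescent cells. IMP1088 lowered 5 and DDD86481 4 in senescent cells, while in control cells each lowered 1, LYN, and DDD86481 raised 1, YES1. FYN, a Src-family kinase, measured 38.2, 44.4 and 34.4 CPM in control and 70.2, 78.6 and 69.5 CPM in senescent cells with DMSO (log2 fold change 0.90 ± 0.10 SE, adjusted p = 2.06e-07). The level of FYN in senescent cells measured 37.2, 36.8 and 34.8 CPM with IMP1088 and 34.0, 32.5 and 32.6 CPM with DDD86481. The senescent DMSO libraries stood above all others, and the inhibitor libraries lay in or below the control range. FYN fell by 1.00 ± 0.11 on the log2 scale with IMP1088 (adjusted p = 2.48e-07) and by 1.14 ± 0.11 with DDD86481 (adjusted p = 6.14e-08). Control cells with an inhibitor held 35.8 to 46 CPM and overlapped those with DMSO. Tested directly, the difference between states was -1.06 ± 0.15 for IMP1088 (adjusted p = 4.03e-05) and -1.14 ± 0.15 for DDD86481 (adjusted p = 1.87e-05).

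ABL1, the Abelson kinase, moved down at both steps. Its libraries read 231, 196 and 140 CPM in control and 136, 140 and 153 CPM in senescent cells with DMSO, which overlap through control replicate 3. The call of -0.41 ± 0.13 (adjusted p = 0.00745) was lost without control DMSO replicate 1, at -0.24 and an adjusted p of 0.0759. It was also lost with only the groups compared in the fit (adjusted p = 0.0692). In senescent cells ABL1 read 82.7, 88.3 and 92.7 CPM with IMP1088 (-0.70 ± 0.13, adjusted p = 0.000155) and 92.9, 79.9 and 99.7 CPM with DDD86481 (-0.65 ± 0.13, adjusted p = 0.000326). All 6 lay below the senescent DMSO range, and control cells with an inhibitor, at 193 to 226 CPM, were not called. Between the states, the difference was -0.78 ± 0.18 for IMP1088 (adjusted p = 0.00359) and -0.85 ± 0.18 for DDD86481 (adjusted p = 0.00175). ABL2, its close relative, stood at 33.5, 20.9 and 30.2 CPM in control and 89.7, 102 and 67.9 CPM in senescent cells with DMSO, without overlap (1.61 ± 0.22, adjusted p = 1.45e-06). In senescent cells it ranged from 55.4 to 68.3 CPM with IMP1088 (-0.46, adjusted p = 0.0791) and from 63.9 to 106 CPM with DDD86481 (adjusted p = 0.732). The IMP1088 effect was called with no low-count filter (adjusted p = 0.00797) and with only the groups compared in the fit (0.00259).

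SRC, the founding member of its family, measured 46.7, 47.4 and 31.9 CPM in control and 60.9, 53.8 and 67.5 CPM in senescent cells with DMSO (0.53 ± 0.14, adjusted p = 0.00184). With IMP1088 it was 48, 43.2 and 49.7 CPM and with DDD86481 47.5, 41.6 and 53.9 CPM, calls of -0.37 and -0.35 (adjusted p = 0.0328 and 0.0449). Either SRC call was lost when senescent DMSO replicate 1 or 3 or replicate 1 or 2 of the inhibitor was left out, with adjusted p up to 0.143 and 0.188. YES1 rose from 73.0 to 99.4 CPM in control to 136 to 158 CPM in senescent cells (0.77 ± 0.11, adjusted p = 2.15e-06). Its effects in senescent cells were -0.27 with IMP1088 (adjusted p = 0.0441) and -0.17 with DDD86481 (adjusted p = 0.212), and in control cells 0.24 and 0.28 (adjusted p = 0.0851 and 0.0439). The IMP1088 call was lost in the fits without senescent DMSO replicate 1 or 2 or IMP1088 replicate 1 or 2 (adjusted p 0.0939 to 0.176), and the DDD86481 call without control DMSO replicate 3 or DDD86481 replicate 1 or 2 (0.113 to 0.212). For YES1 the difference between states was -0.51 ± 0.15 with IMP1088 (adjusted p = 0.0166), lost without control IMP1088 replicate 1 or 2 or senescent IMP1088 replicate 2 (0.0503 to 0.0688). With DDD86481 it was -0.45 ± 0.15 (adjusted p = 0.0292), lost in 6 of the 12 fits, those without control DMSO replicate 3, control DDD86481 replicate 1 or 2, senescent DMSO replicate 1 or 2 or senescent DDD86481 replicate 2 (0.0599 to 0.105).

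LYN was the least abundant of the Src-family kinases, at 6.48 to 7.42 CPM in control and 12.5 to 14.1 CPM in senescent cells with DMSO (0.91 ± 0.13, adjusted p = 2.74e-06). It was called lower with both inhibitors in both states. In control cells its libraries read 5.77, 4.81 and 5.00 CPM with IMP1088 (-0.44 ± 0.13, adjusted p = 0.0151) and 4.75, 4.48 and 5.51 CPM with DDD86481 (-0.52 ± 0.14, adjusted p = 0.00579), all below the DMSO range. The IMP1088 call was lost without control IMP1088 replicate 2 or 3 (adjusted p = 0.0681 and 0.058). In senescent cells the effects were -0.47 ± 0.13 and -0.56 ± 0.13 (adjusted p = 0.00491 and 0.00152), with differences between states of -0.03 and -0.04.

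The G-protein alpha subunits of this list couple receptors to inhibition of adenylyl cyclase. In senescence 3 of the 4 tested were called higher, and in senescent cells each inhibitor lowered 3. GNAI2, the second most abundant member per kilobase in control cells, measured 537, 558 and 617 CPM in control and 791, 800 and 899 CPM in senescent cells with DMSO (0.54 ± 0.08, adjusted p = 4.92e-06). The level of GNAI2 in senescent cells was 621, 676 and 652 CPM with IMP1088 and 660, 657 and 640 CPM with DDD86481, a fall of 0.35 on the log2 scale for both (adjusted p = 0.00117 and 0.00139). In control cells GNAI2 was 412, 415 and 427 CPM with IMP1088 and 418, 410 and 421 CPM with DDD86481, a fall of 0.45 for both (adjusted p = 0.000229 and 0.000196). Each inhibitor group lay wholly below its own DMSO group, and no difference between states was called (0.09 and 0.11, adjusted p = 0.562 and 0.499).

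GNAI1 was at 55.4, 65.8 and 75.4 CPM in control and 71.9, 73.1 and 64.1 CPM in senescent cells with DMSO, overlapping and not called. Senescent cells held 47.8, 44.2 and 46.2 CPM with IMP1088 (-0.60 ± 0.12, adjusted p = 0.000432) and 61.1, 52 and 43 CPM with DDD86481 (-0.42 ± 0.12, adjusted p = 0.00782), below the DMSO range. The second call was lost without senescent DDD86481 replicate 3, at -0.30 and an adjusted p of 0.0545. In control cells the groups overlapped, and the difference between states was -0.62 ± 0.17 with IMP1088 (adjusted p = 0.0103). With DDD86481 it was -0.46 ± 0.17 (adjusted p = 0.0452) and was lost in 9 of the 12 fits (adjusted p 0.0752 to 0.126), all but those without control DMSO replicate 3, senescent DMSO replicate 3 or senescent DDD86481 replicate 1. GNAI3 rose from 138 to 166 CPM to 180 to 186 CPM in senescence (0.26 ± 0.08, adjusted p = 0.00546), a call that upper quartile scaling did not make (adjusted p = 0.259). Its inhibitor effects were not called, but IMP1088 in senescent cells was with only the groups compared in the fit (0.17, adjusted p = 0.0202), and both control-cell effects were under upper quartile scaling (-0.21 and -0.24, adjusted p = 0.0475 and 0.0214). Differences between states of 0.29 and 0.27 (adjusted p = 0.0544 and 0.0644) were called under upper quartile scaling (0.0302 and 0.0367) and by DESeq2 (0.0178 and 0.0232).

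GNAZ, a Gα subunit of the same class resistant to pertussis toxin, was scarce, with control DMSO libraries at 0.726, 1.13 and 0.995 CPM and senescent ones at 2.28, 1.80 and 1.81 CPM (0.98 ± 0.27, adjusted p = 0.00304). With inhibitors the senescent libraries held 0.579, 0.727 and 1.23 CPM and 0.710, 0.731 and 0.859 CPM, back in or near the control range. These were the largest falls among the members on the log2 scale in senescent cells, 1.13 ± 0.28 (adjusted p = 0.00269) and 1.25 ± 0.29 (adjusted p = 0.00134). In control cells GNAZ held 0.251, 0.356 and 0.534 CPM with IMP1088 (-1.12 ± 0.31, adjusted p = 0.00854) and 0.365, 0.728 and 0.561 CPM with DDD86481 (-0.69 ± 0.30, adjusted p = 0.0786). The former was lost without control IMP1088 replicate 1, at -0.94 and an adjusted p of 0.0516. With levels this close to the floor, the fold changes of GNAZ are less precise than those of GNAI2.

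The actin and membrane organisers held members that moved in opposite directions. In senescence 2 of the 6, FMNL1 and FMNL3, were called higher and 3, MARCKS, MARCKSL1 and FMNL2, lower. MARCKSL1 measured 361, 416 and 534 CPM in control and 240, 237 and 267 CPM in senescent cells with DMSO (-0.82 ± 0.11, adjusted p = 1.16e-06). In senescent cells MARCKSL1 was at 119, 119 and 128 CPM with IMP1088 (-1.02 ± 0.11, adjusted p = 2.98e-07) and 130, 123 and 130 CPM with DDD86481 (-0.96 ± 0.11, adjusted p = 7.22e-07). Both inhibitor groups, which overlapped each other, lay below the senescent DMSO group, and that group below the control group. In control cells MARCKSL1 was at 341 to 379 CPM with IMP1088 (-0.30, adjusted p = 0.0343) and 329 to 353 CPM with DDD86481 (-0.35, adjusted p = 0.015). The former, whose groups overlapped, was lost without control DMSO replicate 3 or control IMP1088 replicate 1 or 3 (adjusted p 0.112 to 0.256), and the latter without control DMSO replicate 3 or DDD86481 replicate 1 (0.113 and 0.0638). The difference between states was -0.72 ± 0.15 for IMP1088 (adjusted p = 0.00192) and -0.61 ± 0.15 for DDD86481 (adjusted p = 0.00573).

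MARCKS, its larger relative, measured 298, 318 and 331 CPM in control and 148, 166 and 150 CPM in senescent cells with DMSO (-1.03 ± 0.08, adjusted p = 4.51e-10). With IMP1088 it fell further to 116, 130 and 120 CPM (-0.34 ± 0.08, adjusted p = 0.0016), and with DDD86481 it was 149, 139 and 135 CPM, overlapping DMSO (adjusted p = 0.187). BASP1, a membrane protein of growth cones and cell edges, was not called in senescence, at 250 to 308 CPM in control and 269 to 296 CPM in senescent cells. Both inhibitors lowered it in both states, to 193, 192 and 205 CPM with IMP1088 and 208, 202 and 216 CPM with DDD86481 in senescent cells (-0.53 ± 0.09 and -0.44 ± 0.09, adjusted p = 7.62e-05 and 0.000472). In control cells BASP1 held 159, 185 and 179 CPM and 168, 191 and 174 CPM (-0.67 ± 0.09 and -0.64 ± 0.09, adjusted p = 1.22e-05 and 1.83e-05). No inhibitor library of BASP1 reached the range of its DMSO group.

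The formins FMNL1, FMNL2 and FMNL3, which build unbranched actin filaments, each followed a pattern of their own. FMNL1 read 2.02, 3.3 and 1.79 CPM in control and 8.83, 7.78 and 8.79 CPM in senescent cells with DMSO (1.78 ± 0.19, adjusted p = 5.5e-08). It rose in control cells with both inhibitors, to 4.16, 5.52 and 5.34 CPM with IMP1088 (1.04 ± 0.19, adjusted p = 0.000335) and 4.33, 4.03 and 5.14 CPM with DDD86481 (0.89 ± 0.20, adjusted p = 0.00151). These libraries lay between the control and the senescent DMSO libraries. In senescent cells no effect was called, with 8.13 to 8.58 CPM and 6.27 to 8.4 CPM, and the differences between states were -1.05 ± 0.26 and -1.08 ± 0.26 (adjusted p = 0.00577 and 0.00462). On the opposite strand EFCAB15P, FMNL1-AS1 and FMNL1-DT together overlap 24.6% of the exonic bases of FMNL1. Although the libraries were strand-specific, the strand setting of the counting is not given in the sources used here.

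FMNL3 rose in senescence from 63.8, 43.9 and 32.2 CPM to 153, 144 and 152 CPM (1.68 ± 0.18, adjusted p = 4.65e-08). The level of FMNL3 in senescent cells measured 91.5, 85.1 and 94.5 CPM with IMP1088 and 91.5, 72.8 and 102 CPM with DDD86481 (-0.73 ± 0.17 and -0.75 ± 0.17, adjusted p = 0.00177 and 0.00142), between the DMSO groups of the 2 states. In control cells with an inhibitor it ranged from 48.5 to 68.4 CPM and was not called. The differences between states were -0.99 ± 0.25 for IMP1088 (adjusted p = 0.00619) and -1.15 ± 0.25 for DDD86481 (adjusted p = 0.00185). PRPF40B overlaps 19.7% of its exonic bases on the opposite strand. FMNL2 went from 63.5, 59.2 and 46 CPM to 41.7, 47.4 and 38.6 CPM in senescence (-0.40 ± 0.12, adjusted p = 0.00481), and to 30.1, 29.5 and 29.1 CPM with IMP1088 and 27.8, 34.9 and 36.0 CPM with DDD86481 (-0.52 and -0.37, adjusted p = 0.00135 and 0.0169). The last call was lost without senescent DMSO replicate 2 or DDD86481 replicate 1 (adjusted p 0.097 to 0.103). In control cells the inhibitor libraries of FMNL2, at 64.2 to 74.0 CPM, lay above those with DMSO but missed the threshold (adjusted p = 0.0516 and 0.0565), and the differences between states were -0.82 ± 0.17 and -0.66 ± 0.17 (adjusted p = 0.00132 and 0.00623).

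**Figure D4:**
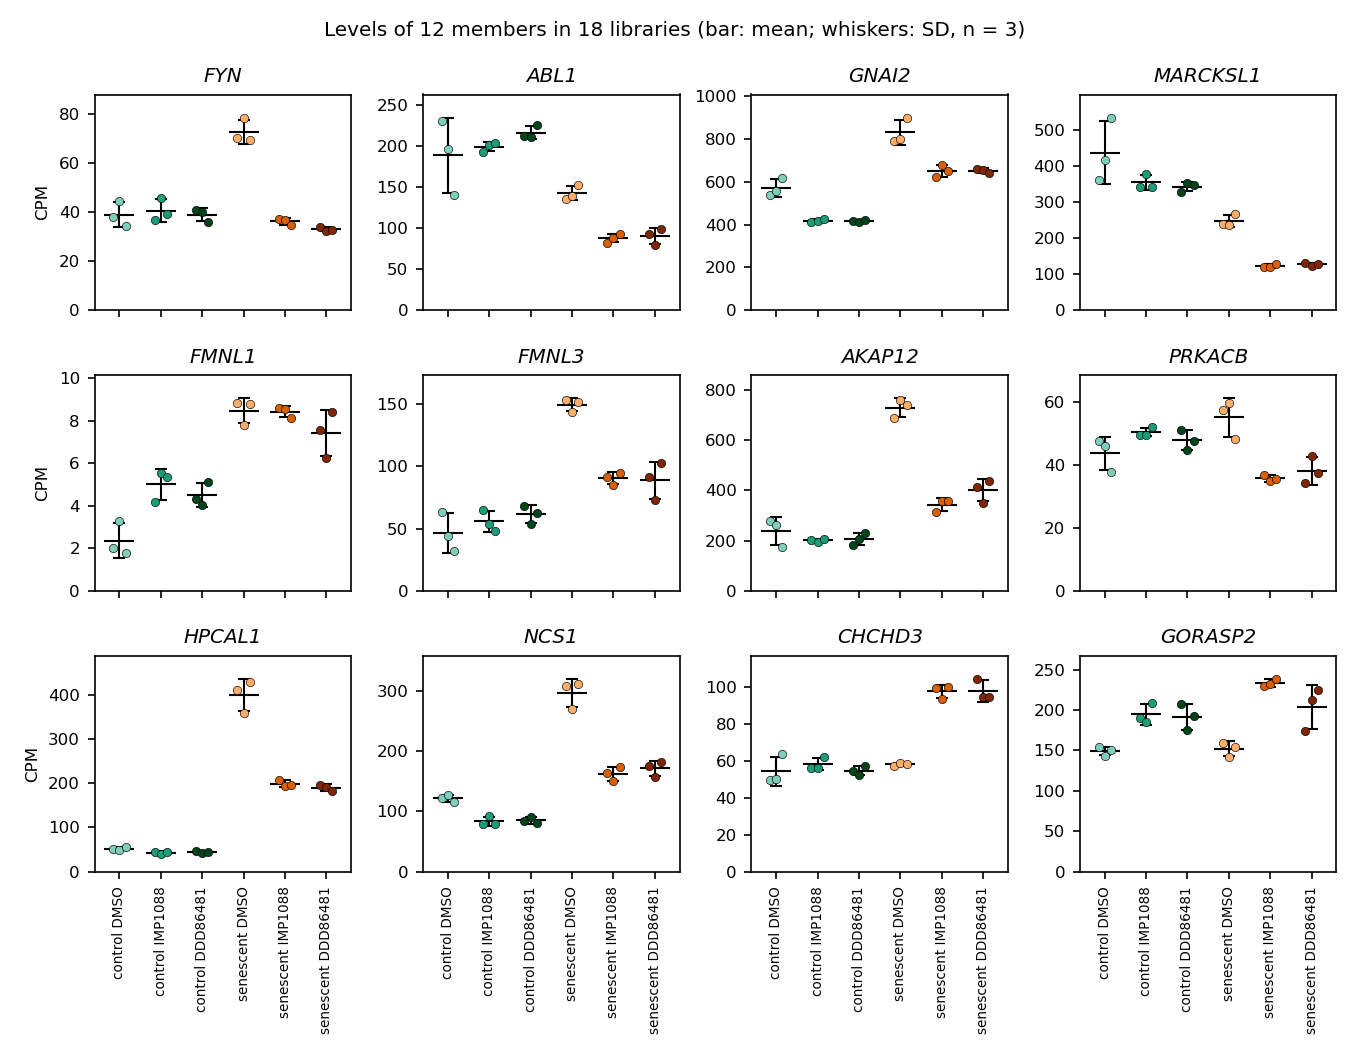
CPM of 12 members in the 18 libraries, 3 points for each group with the mean as a bar and the SD as whiskers, axes from 0. FYN, AKAP12, HPCAL1 and NCS1 are highest in senescent cells with DMSO and lower there with either inhibitor, MARCKSL1 is lower in every senescent group, and CHCHD3 is highest in senescent cells with an inhibitor.

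Among the PKA and AMPK components, 4 of the 5 were called higher in senescence. AKAP12, a scaffold that anchors PKA and protein kinase C at the membrane, measured 278, 263 and 174 CPM in control and 686, 760 and 740 CPM in senescent cells with DMSO (1.61 ± 0.14, adjusted p = 1.64e-09). In senescent cells AKAP12 was 315, 357 and 358 CPM with IMP1088 (-1.08 ± 0.13, adjusted p = 2.04e-06) and 413, 351 and 438 CPM with DDD86481 (-0.86 ± 0.13, adjusted p = 2.9e-05). These 6 libraries stood above every control library and below every senescent DMSO library. In control cells AKAP12 ranged from 184 to 230 CPM with an inhibitor and was not called. Tested directly, the difference between states was -0.85 ± 0.19 for IMP1088 (adjusted p = 0.00278) and -0.66 ± 0.19 for DDD86481 (adjusted p = 0.0129), which without control DDD86481 replicate 3 was -0.54 with an adjusted p of 0.0565.

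PRKACA and PRKACB encode catalytic subunits of PKA. PRKACA rose from 135, 115 and 89.9 CPM to 239, 216 and 239 CPM in senescence (1.03 ± 0.12, adjusted p = 2.64e-07). It was 194, 201 and 213 CPM with IMP1088 (adjusted p = 0.213, and 0.0426 with only the groups compared in the fit) and 160, 180 and 211 CPM with DDD86481 (-0.33 ± 0.12, adjusted p = 0.0302). That call was lost without senescent DMSO replicate 1 or 3 or DDD86481 replicate 1 or 2 (adjusted p 0.0789 to 0.149). Between the states, the difference with DDD86481 was -0.49 ± 0.17 (adjusted p = 0.0374), lost in 9 of the 12 fits (0.0599 to 0.112), all but those without control DMSO replicate 1, senescent DMSO replicate 2 or senescent DDD86481 replicate 3. PRKACB was higher in senescence by 0.33 ± 0.11 (adjusted p = 0.0101), from 37.9 to 47.6 CPM to 48.2 to 59.6 CPM, a call lost under upper quartile scaling (adjusted p = 0.151) and on leaving out senescent DMSO replicate 2 (0.0538). The level of PRKACB in senescent cells fell to 37.0, 34.9 and 35.6 CPM with IMP1088 and 34.2, 43 and 37.6 CPM with DDD86481 (-0.62 ± 0.11 and -0.53 ± 0.11, adjusted p = 0.000105 and 0.000567). With inhibitors the control libraries of PRKACB were at 44.9 to 52 CPM, and the differences between states were -0.82 ± 0.15 and -0.65 ± 0.15 (adjusted p = 0.000634 and 0.00367).

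The AMPK beta subunits PRKAB1 and PRKAB2, which tether the energy-sensing kinase to membranes, were both called higher with IMP1088 in senescent cells. PRKAB1 was lower in senescence, with 29.6, 30.3 and 27.3 CPM in control and 20, 22.7 and 23.9 CPM in senescent cells (-0.39 ± 0.11, adjusted p = 0.00323). IMP1088 raised it in senescent cells to 27.9, 31.3 and 27.4 CPM (0.38 ± 0.11, adjusted p = 0.00735), and DDD86481 gave 22.3, 27.7 and 29.1 CPM (adjusted p = 0.0732). In control cells PRKAB1 was called at 0.28 and 0.27 (adjusted p = 0.047 and 0.0494), calls that were lost in 6 of 6 and 5 of 6 fits that left out 1 library (adjusted p 0.0548 to 0.121 and 0.0579 to 0.134), the exception being that without control DDD86481 replicate 2. PRKAB2 was called higher in senescence (0.33 ± 0.10, adjusted p = 0.00779) with overlapping groups, lost under upper quartile scaling (adjusted p = 0.132) and on leaving out senescent DMSO replicate 2 (0.0521). With IMP1088 it rose in senescent cells from 32.2, 34.0 and 26.5 CPM to 37.2, 36.4 and 42.4 CPM (0.32 ± 0.10, adjusted p = 0.0141), lost without senescent DMSO or IMP1088 replicate 3 (adjusted p = 0.0965 and 0.0868).

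Of the phosphatases and calcium-binding proteins, 4 of 6 were called higher and PPM1B lower in senescence. The largest change of any member was that of HPCAL1, a neuronal calcium sensor protein that exposes its myristate when calcium binds. It measured 50.6, 49.1 and 56.3 CPM in control and 411, 358 and 429 CPM in senescent cells with DMSO, 7.67-fold higher (log2 fold change 2.94 ± 0.09, adjusted p = 2.31e-16). In senescent cells HPCAL1 was 208, 194 and 196 CPM with IMP1088 (-1.0 ± 0.09, adjusted p = 1.81e-08) and 195, 192 and 181 CPM with DDD86481 (-1.07 ± 0.09, adjusted p = 9.27e-09). Both inhibitor groups lay between the senescent DMSO and the control libraries, without overlap. In control cells HPCAL1 was 44.1, 40.0 and 44.3 CPM with IMP1088 and 46.3, 41.7 and 44 CPM with DDD86481 (-0.28 and -0.24, adjusted p = 0.0193 and 0.0381). These calls were lost without control DMSO replicate 3 or IMP1088 replicate 2 (adjusted p 0.069 to 0.0893), and without control DMSO replicate 3 or DDD86481 replicate 2 or 3 (0.0877 to 0.135). The difference between states was -0.72 ± 0.12 for IMP1088 (adjusted p = 0.000285) and -0.83 ± 0.12 for DDD86481 (adjusted p = 6.83e-05).

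NCS1, of the same calcium sensor family, measured 121, 127 and 116 CPM in control and 308, 270 and 312 CPM in senescent cells with DMSO (1.29 ± 0.09, adjusted p = 1.51e-10). The level of NCS1 in senescent cells fell to 164, 150 and 173 CPM with IMP1088 (-0.87 ± 0.09, adjusted p = 2.96e-07) and 176, 156 and 181 CPM with DDD86481 (-0.79 ± 0.09, adjusted p = 1e-06). In control cells NCS1 fell to 79.3, 91.3 and 78.4 CPM and to 83.8, 91 and 79.7 CPM (-0.55 ± 0.09 and -0.51 ± 0.09, adjusted p = 0.000151 and 0.000264). The 6 groups of NCS1 did not overlap between DMSO and inhibitor in either state, and the differences between states missed the threshold (-0.33 and -0.28, adjusted p = 0.0719 and 0.111).

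The others of this group moved less. CHP1, a cofactor of sodium-proton exchangers, rose in senescence from 107 to 130 CPM to 188 to 198 CPM (0.69 ± 0.09, adjusted p = 8.79e-07) and was called in no inhibitor comparison. PPP3R1, the calcineurin B subunit, was called higher in all 5 comparisons. Its libraries ranged from 81.2 to 93.8 CPM in control and from 105 to 117 CPM in senescent cells with DMSO (0.34 ± 0.09, adjusted p = 0.00234, and 0.0819 under upper quartile scaling). The 4 inhibitor effects were 0.22 to 0.24, and each was lost in 3 to 5 of the 6 fits that left out 1 library, with adjusted p from 0.051 to 0.187. In senescent cells those were all fits but that without IMP1088 replicate 2 or DDD86481 replicate 2, and in control cells those without DMSO replicate 1 or IMP1088 replicate 2 or 3, and without DMSO replicate 1 or any DDD86481 replicate. Other transcripts cover 13.7% of its exonic bases on the same and 20.8% on the opposite strand. The metal-dependent phosphatase PPM1A was called in none of the comparisons, and its relative PPM1B was called lower in senescence (-0.24, adjusted p = 0.0374) and with IMP1088 in senescent and control cells (-0.30 and -0.26, adjusted p = 0.0207 and 0.0438). The PPM1B calls were lost in 4, 2 and 5 fits of 6 (adjusted p 0.0574 to 0.16): without control DMSO replicate 2 or 3 or senescent DMSO replicate 1 or 2, without senescent DMSO replicate 3 or IMP1088 replicate 2, and without any library but control DMSO replicate 1. With no low-count filter the PPM1B calls were also lost (adjusted p 0.0623 to 0.171), and DESeq2 did not make the senescence call (0.056). For PPM1B, another gene shares 21.8% of the exonic bases on the same strand.

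Of the 8 tested receptor adaptors, ubiquitin ligases and endolysosomal proteins, 5 were called in senescence and none with either inhibitor in senescent cells. With only the groups compared in the fit, RNF11, LAMTOR1 and PIK3R4 were called lower and CHMP6 higher with IMP1088 (adjusted p 0.0206 to 0.0489), and FRS2 lower when those groups were also paired (0.0484). FRS2, the docking protein of FGF receptors, went from 42.4, 37.4 and 27.8 CPM to 24.9, 23.1 and 22.2 CPM in senescence (-0.61 ± 0.13, adjusted p = 0.000199), without overlap. FRS3 stayed between 2.76 and 5.93 CPM in all 18 libraries and was not called. ZNRF2, a RING-type ligase of endolysosomal membranes, measured 3.18, 3.98 and 2.59 CPM in control and 0.741, 0.498 and 1.37 CPM in senescent cells (-1.77 ± 0.29, adjusted p = 2.08e-05), the largest fall of any member in senescence. Its relative ZNRF1 fell from 38.2, 42.7 and 43.7 CPM to 22.3, 22.2 and 27.4 CPM (-0.79 ± 0.11, adjusted p = 1.58e-06). WDR59 and another annotated gene together overlap 19.7% of the exonic bases of ZNRF1 on the opposite strand. RNF11 was called higher in senescence by 0.22 (adjusted p = 0.0227), with overlapping groups and a call lost without control or senescent DMSO replicate 1 or 2 (adjusted p 0.0733 to 0.126) and under upper quartile scaling (0.548). In control cells RNF11 was called lower with both inhibitors (-0.25 and -0.23, adjusted p = 0.0198 and 0.0287), each lost in 4 of 6 fits, those without control DMSO replicate 2 or 3 or inhibitor replicate 1 or 3 (up to 0.0866 and 0.115).

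CHMP6, the membrane-bound start of the ESCRT-III polymer, measured 31.1, 32.5 and 44.8 CPM in control and 19.9, 21.5 and 26.1 CPM in senescent cells with DMSO (-0.68 ± 0.14, adjusted p = 0.000277). In control cells DDD86481 brought it to 25.8, 26.7 and 27.2 CPM (-0.44 ± 0.14, adjusted p = 0.0187), lost without control DMSO replicate 3 or DDD86481 replicate 1 (adjusted p = 0.131 and 0.0655). In senescent cells CHMP6 was at 28.1, 28.7 and 20.9 CPM with DDD86481, overlapping DMSO. Tested directly, the difference between states was 0.64 ± 0.20 (adjusted p = 0.0213), lost without control DMSO replicate 3, senescent DMSO replicate 1 or senescent DDD86481 replicate 1 or 2 (0.0535 to 0.0617). Opposite-strand transcripts cover 21.5% of its exonic bases. LAMTOR1, the lysosomal anchor of the Ragulator complex, and PIK3R4, the regulatory subunit of the class III lipid kinase, were called in no comparison of the 18-library fit, with ranges over the 18 libraries of 79.1 to 115 CPM and 17.1 to 34.1 CPM.

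The Golgi stacking proteins GORASP1 and GORASP2 tether neighbouring cisternae. GORASP2 was the only member called higher with both inhibitors in both states in every fit that left out 1 library. It was not called in senescence, at 154, 143 and 151 CPM in control and 160, 142 and 154 CPM in senescent cells. The level of GORASP2 in senescent cells rose to 230, 232 and 239 CPM with IMP1088 (0.62 ± 0.10, adjusted p = 2.65e-05) and 174, 212 and 225 CPM with DDD86481 (0.42 ± 0.10, adjusted p = 0.00123). In control cells GORASP2 rose to 190, 185 and 209 CPM and to 207, 175 and 192 CPM (0.38 ± 0.10 and 0.36 ± 0.10, adjusted p = 0.00411 and 0.006). The DDD86481 call in control cells was lost with only the groups compared in the fit and paired by replicate number (0.35, adjusted p = 0.06). Every inhibitor library of GORASP2 lay above every DMSO library of its state. GORASP1 rose in senescence from 50.8, 48.7 and 41.7 CPM to 71.2, 66.2 and 70.4 CPM (0.56 ± 0.10, adjusted p = 3.82e-05) and was called with neither inhibitor. TTC21A and WDR48 overlap 18.3% of its exonic bases on the opposite strand.

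The mitochondrial and endoplasmic reticulum proteins again split. CHCHD3, a subunit of the MICOS complex that shapes the cristae, measured 49.5, 50.2 and 63.5 CPM in control and 57.2, 58.6 and 58.4 CPM in senescent cells with DMSO, not called. In senescent cells CHCHD3 rose to 99.7, 93.5 and 99.7 CPM with IMP1088 (0.75 ± 0.09, adjusted p = 2.42e-06) and 104, 94.4 and 94.3 CPM with DDD86481 (0.75 ± 0.09, adjusted p = 2.36e-06). All 6 libraries exceeded every other library of the series, and control cells with an inhibitor, at 52.5 to 61.8 CPM, overlapped those with DMSO. Between the states, the difference was 0.65 ± 0.13 for IMP1088 (adjusted p = 0.00131) and 0.74 ± 0.13 for DDD86481 (adjusted p = 0.000456). CHCHD6, another MICOS subunit, held 11.4, 12.1 and 16.5 CPM in control and 9.2, 10.5 and 12.7 CPM in senescent cells with DMSO, called only under upper quartile scaling (-0.45, adjusted p = 0.018). With IMP1088 it was 9.28, 10.8 and 8.69 CPM in control cells (-0.46 ± 0.16, adjusted p = 0.0278) and 12.2, 15.8 and 14.5 CPM in senescent cells (adjusted p = 0.0562, and 0.0106 with only the groups compared in the fit). The former was lost without control DMSO replicate 3 or IMP1088 replicate 1 or 3 (adjusted p 0.0873 to 0.168). The difference between states was 0.84 ± 0.22 (adjusted p = 0.0089), and with DDD86481 it was 0.59 (adjusted p = 0.0528).

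CYB5R3, the NADH-cytochrome b5 reductase, followed GNAI2. It measured 352, 325 and 322 CPM in control and 550, 522 and 584 CPM in senescent cells with DMSO (0.73 ± 0.09, adjusted p = 4.27e-07). With IMP1088 it fell to 227, 205 and 228 CPM in control and 364, 395 and 364 CPM in senescent cells (-0.60 ± 0.09 and -0.56 ± 0.09, adjusted p = 3.99e-05 and 3.77e-05). With DDD86481 it fell to 223, 208 and 222 CPM and to 314, 364 and 394 CPM (-0.61 ± 0.09 and -0.63 ± 0.09, adjusted p = 2.99e-05 and 1.11e-05). No inhibitor library of CYB5R3 reached its DMSO group in either state, and the differences between states were 0.03 and -0.02. A4GALT and another annotated gene together share 10.6% of the exonic bases of CYB5R3 on the same strand. AIFM2, an oxidoreductase that guards against lipid peroxidation, rose in senescence from 19.9, 23.7 and 27.7 CPM to 44.3, 44.1 and 49.9 CPM (0.96 ± 0.11, adjusted p = 1.56e-07) and was at 44.2 to 47.9 CPM in senescent cells with either inhibitor, not called. Its calls in control cells, -0.37 and -0.30 (adjusted p = 0.0146 and 0.0392), came with overlapping groups and were lost without control DMSO replicate 3 or IMP1088 replicate 1 (0.0838 to 0.0851) and without any library but control DMSO replicate 1 (0.0529 to 0.216). MACROH2A2 overlaps 19.2% of its exonic bases on the opposite strand. DEGS1, the dihydroceramide desaturase, was called lower in senescence (-0.32 ± 0.11, adjusted p = 0.0102) and in no inhibitor comparison. That call was lost without control or senescent DMSO replicate 3 (0.0522 and 0.0606) and with only the groups compared in the fit (0.062).

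The lipid carriers move prenylated or myristoylated proteins between membranes. RP2, which acts on the carrier cycle through ARL3, measured 23.8, 23.9 and 26.5 CPM in control and 44.6, 45.2 and 41.2 CPM in senescent cells with DMSO (0.82 ± 0.12, adjusted p = 4.95e-06). The level of RP2 in senescent cells fell to 27.5, 25.1 and 30.3 CPM with IMP1088 (-0.66 ± 0.12, adjusted p = 0.000169) and 27.1, 30.7 and 34.6 CPM with DDD86481 (-0.50 ± 0.12, adjusted p = 0.00203). In control cells RP2 fell to 15.4, 13.9 and 18.9 CPM (-0.62 ± 0.12, adjusted p = 0.000709) and 17.4, 18.4 and 20.9 CPM (-0.38 ± 0.12, adjusted p = 0.019), the last lost without control DMSO replicate 3 or DDD86481 replicate 1 or 2 (0.0539 to 0.0931). Each inhibitor group of RP2 lay below the DMSO group of its state. UNC119B was not called in senescence and was lower in senescent cells with IMP1088 (62.1, 56 and 62.9 CPM against 73.3, 75.5 and 77.3 CPM, -0.32 ± 0.09, adjusted p = 0.00664) and DDD86481 (-0.28, adjusted p = 0.0181). UNC119 was called lower with DDD86481 in senescent cells (-0.41 ± 0.13, adjusted p = 0.0158), and the effect with IMP1088 was -0.14 (adjusted p = 0.419). Without senescent DMSO replicate 3 or DDD86481 replicate 2 for UNC119B, and DMSO or DDD86481 replicate 1 for UNC119, the DDD86481 calls were lost (adjusted p 0.0539 to 0.104). Opposite-strand transcripts cover 11% of the exonic bases of UNC119B.

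**Figure D5:**
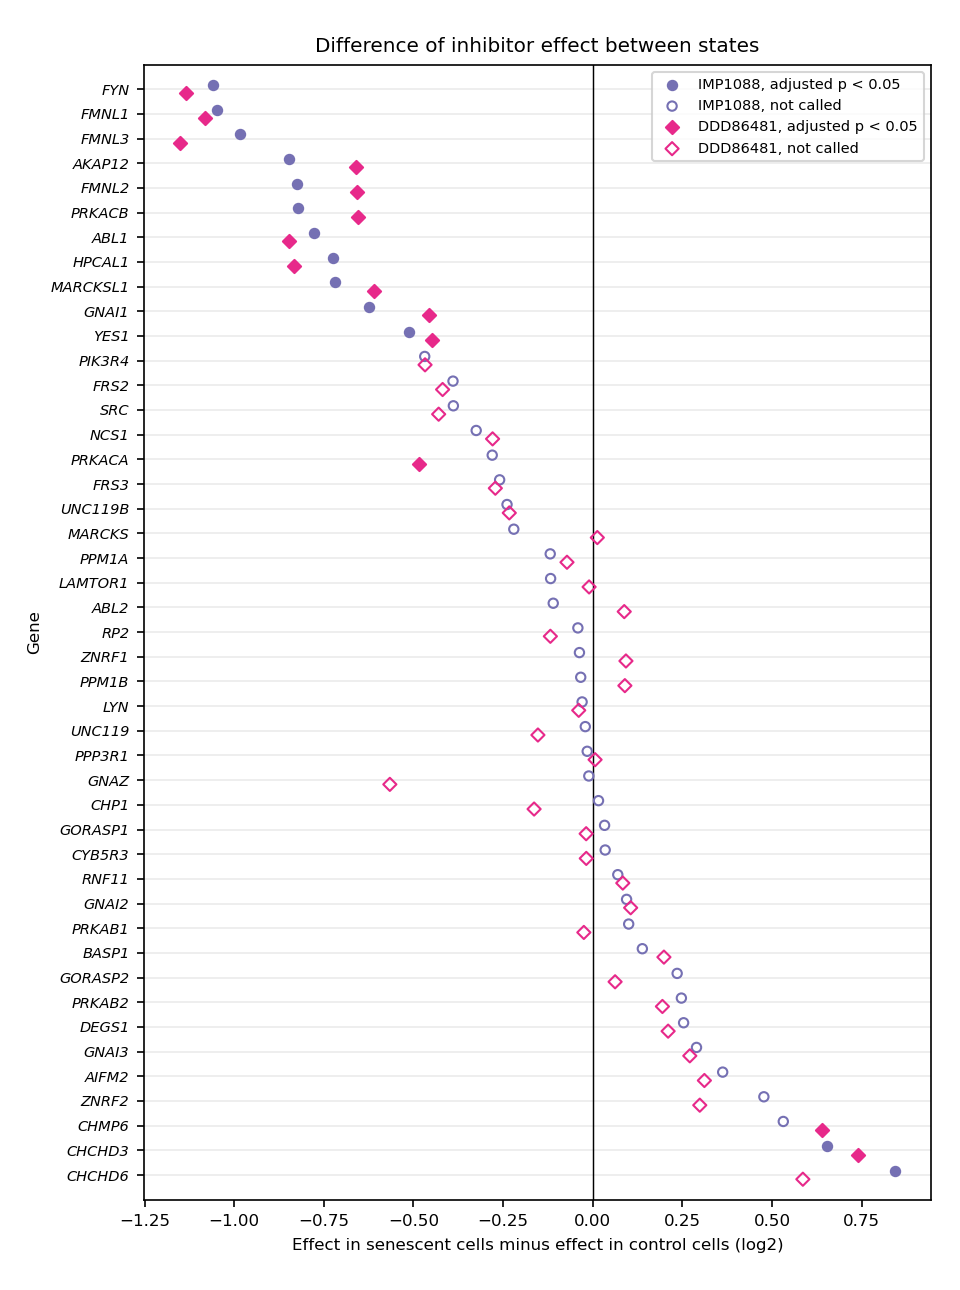
Difference between states in the log2 effect of each inhibitor (senescent less control) for the 45 tested genes, circles for IMP1088 and diamonds for DDD86481, filled where the adjusted p is below 0.05. FYN, FMNL1 and FMNL3 lie at or near -1 for both inhibitors, while CHCHD3 lies at 0.65 and 0.74.

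Read across the role groups by their start sequences, the 9 tested genes with glycine and cysteine at codons 2 and 3 gave 7 higher and 0 lower calls in senescence, 7 lower with IMP1088 and 6 lower with DDD86481 in senescent cells, and 4 and 3 lower, with 1 higher for DDD86481, in control cells. Of all genes, 32.5% were higher and 36% lower in senescence, 23.9% and 23.1% lower with the inhibitors in senescent cells and 17.4% and 18.7% in control cells. Of the 9 glycine-2 genes without serine at codon 6, 2 were lower with each inhibitor in senescent cells, FYN in both cases, with PPM1B for IMP1088 and PRKACA for DDD86481. Among the 32 tested with serine at codon 6, which include 8 of the cysteine class, 16 were lower and 5 higher with IMP1088 and 14 lower and 3 higher with DDD86481. The 4 genes whose canonical start lacks the glycine, ABL1, PRKACB, UNC119 and UNC119B, gave 3 and 4 lower calls in senescent cells and none with either inhibitor in control cells, where edgeR gave them an adjusted p from 0.129 to 0.741. These are counts over overlapping classes of a list chosen for its protein starts, and no class was tested against another. Genes were sorted by the canonical start alone, and their counts include forms with other starts.

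The enzymes of the modification were measured alongside, from a list of 12 of which 11 were tested. NMT1 ranged from 140.5 to 156.5 CPM in control and from 158.6 to 164.2 CPM in senescent cells with DMSO and was called in none of the 7 comparisons. The nearest was DDD86481 in control cells (0.21 ± 0.08, adjusted p = 0.0521), which DESeq2 called (adjusted p = 0.0215). NMT2 was lower in senescence, with 34.1, 38.9 and 45.8 CPM in control and 16.3, 18.1 and 16.4 CPM in senescent cells (-1.22 ± 0.14, adjusted p = 1.22e-07). In control cells NMT2 fell to 18.7, 23.2 and 19.4 CPM with IMP1088 and 18.4, 22.7 and 16.5 CPM with DDD86481 (-0.95 ± 0.13 and -1.04 ± 0.14, adjusted p = 2.03e-05 and 8.15e-06), near the senescent level. In senescent cells NMT2 was also called lower with DDD86481 (-0.39, adjusted p = 0.032), and not with IMP1088 (-0.23, adjusted p = 0.208). Of the 11 enzymes and helpers, 3 were called higher and 3 lower in senescence, 3 and 1 with IMP1088 and 3 and 2 with DDD86481 in senescent cells, and 2 and 5 and 2 and 4 in control cells. The shares called in either direction were 54.5%, 36.4%, 45.5%, 63.6% and 54.5%, against 68.5%, 44.4%, 43.2%, 33.7% and 36.6% of all genes. Their median log2 fold changes were -0.10, -0.02, 0.03, -0.25 and -0.27 in that order.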

How the data were processed

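Bulk RNA of IMR90 ER:RAS cells was measured in 18 libraries, 3 for each of 6 groups taken from the submitters' labels. The values are unnormalised counts of reads for each gene, as deposited, in 1 table. The study's methods describe alignment with TopHat to hg19 and counting with HTSeq, whereas the submitters' processing notes name STAR 2.7.8a, DRAGEN, DESeq2 1.32.0 and hg38. Which of them made the table is not given in the sources used here. The libraries were strand-specific and the methods aligned them as such, but the strand setting of the counting step is not given. The table names the DDD86481 columns PCLX001, and they were matched through sample descriptions that list both names. Of 28266 gene rows, 6836 held no count.

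Genes passing filterByExpr (14341, with 99.962% of the counts) were fitted with edgeR 4.0.16 (R 4.3.3, limma 3.58.1) by its quasi-likelihood test, in 1 model of the 18 libraries with TMM scaling and a prior count of 2. Benjamini-Hochberg adjustment ran over all genes tested and the threshold was 0.05. The 7 comparisons were senescence, each inhibitor in each state, and the difference between states for each inhibitor. The prior count shrinks the fold changes of scarce genes. The SE beside a log2 fold change is approximate, its absolute value divided by the square root of the F statistic. Alternatives were DESeq2 1.42.0, other scalings, filters and models, a test against a fold of 1.5, and leaving out each library. The scripts were tested on simulated counts, with 100 genes changed 2-fold and 100 changed 1.5-fold in the senescent IMP1088 group. The test of IMP1088 in senescent cells called 90 and 44 of them, and that of the IMP1088 difference between states 68 and 10. A gene not called may therefore still have changed.

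Members and lists were chosen with earlier results of these data known. All members were accounted for by role, and those with up to 8 largest called log2 fold changes in a comparison, 1 or more of each role and all called differences between states were given by library. NMT1, NMT2 and up to 3 called genes of each other list were named. The labels do not say whether replicates came from separate cultures, while the study describes its replicates of these treatments as independent experiments. No pair of libraries agreed within sampling noise (lowest chi-square per gene 4.89). Deviations of same-numbered libraries correlated at 0.394, 0.123 and 0.231 between control DMSO and control IMP1088, each above the limit of 0.1, and these were taken as paired from the data. The other compared groups shared only a number. Floors cover counting error only. Gene models, overlaps, lengths and start sequences came from GENCODE on GRCh37, matched by symbol.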

Additional observations from a re-analysis of the deposited data

Results flagged for a closer look

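The effect of an inhibitor differed between senescent and control cells for the genes below, by a test of the difference itself in the edgeR model. Values are differences of log2 effects, senescent less control. The inhibitors share their DMSO libraries, so their values are not independent.

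For IMP1088 the effect was more negative in senescent cells for FYN (-1.06), FMNL1 (-1.05), FMNL3 (-0.99), AKAP12 (-0.85), FMNL2 (-0.82), PRKACB (-0.82), ABL1 (-0.78), HPCAL1 (-0.72), MARCKSL1 (-0.72), GNAI1 (-0.62) and YES1 (-0.51). It was more positive for CHCHD6 (0.84) and CHCHD3 (0.65). FMNL1 rose in control cells and was not called in senescent ones, while FYN, FMNL3, AKAP12, PRKACB, ABL1, GNAI1 and FMNL2 were called lower in senescent cells and not called in control cells. Each of the 13 held in the 12 fits that left out 1 library, except YES1, which was lost without control IMP1088 replicate 1 or 2 or senescent IMP1088 replicate 2 (adjusted p 0.0503 to 0.0688).

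For DDD86481 the effect was more negative in senescent cells for FMNL3 (-1.15), FYN (-1.14), FMNL1 (-1.08), ABL1 (-0.85), HPCAL1 (-0.83), AKAP12 (-0.66), FMNL2 (-0.66), PRKACB (-0.65), MARCKSL1 (-0.61), PRKACA (-0.49), GNAI1 (-0.46) and YES1 (-0.45), and more positive for CHCHD3 (0.74) and CHMP6 (0.64). Of these 14, YES1, GNAI1, PRKACA, AKAP12 and CHMP6 were lost in 6, 9, 9, 1 and 4 of the 12 fits, with adjusted p up to 0.105, 0.126, 0.112, 0.0565 and 0.0617. The libraries are named with each gene above.

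Among genes outside the 47, the difference was -3.16 for IMP1088 and -3.26 for DDD86481 in NKD2, and -1.94 and -2.38 in PRKG2. It was 1.49 and 1.15 in ACSL5, and 0.72 and 0.65 in NMT2, where the second was 0.52 without senescent DDD86481 replicate 2 (adjusted p = 0.0613).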

How the results depend on the processing

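A test against a fold of 1.5 left 18 members and 5329 of all genes for senescence, 5 and 1604 for IMP1088 and 5 and 1547 for DDD86481 in senescent cells, 0 and 730 and 0 and 727 in control cells, and 1 and 780 and 1 and 798 for the differences between states. With only the groups compared in the fit, 8 members and 2716 genes were called for IMP1088 and 7 and 2842 for DDD86481 in control cells. The same fit gave 30 members for senescence and 34 with 7841 genes for IMP1088 in senescent cells, or 29 and 35 with 8132 genes when blocked. With a replicate block in that fit the control-cell counts were 10 members for IMP1088, 6 and 3277 for DDD86481, and 9 members for the DDD86481 difference. The replicate block in the model of 18 libraries gave 34, 26, 22, 17, 16, 14 and 14 members over the 7 comparisons, and 9913, 6510, 6259, 5003, 5412, 3974 and 4555 genes. It lost PPP3R1 with IMP1088 in both states (adjusted p = 0.058 and 0.0542) and with DDD86481 in control cells (0.0554), SRC with DDD86481 (0.0539) and the GNAI1 difference with DDD86481 (0.0547). It gained CHCHD6 with IMP1088 in senescent cells (0.0486), FMNL2 with IMP1088 and FMNL3 with DDD86481 in control cells (0.0492 and 0.0423), and the GNAI3 and CHCHD6 differences (0.0475 and 0.0435). Leaving out 1 library gave 30 to 34 members for senescence, 24 to 26 and 19 to 22 for IMP1088 and DDD86481 in senescent cells, 10 (without control IMP1088 replicate 1) to 21 (without control DMSO replicate 1) and 9 (without control DDD86481 replicate 1) to 24 (without control DMSO replicate 1) in control cells, and 12 to 19 and 10 to 19 for the differences. Upper quartile scaling moved the median of all genes by -0.15 in senescence. Where a count of members stands without one of all genes, its background in that fit is not given. Over single members and comparisons, the fits without 1 library left 2235 results, called or not, on their side of the threshold. They lost 144 calls and gained 51. The other settings left 2572 results, called or not, on their side, lost 212 calls and gained 51. No direction of a called value was reversed in any setting, and the cause of these shifts was not tested. Depth limits GNAZ, GNAO1, TICAM2 and ZNRF2, whose levels come within a few times the floor.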

Other observations

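A second list held 22 other genes known to encode N-myristoylated proteins, of which 14 were tested. Senescence gave 5 higher and 5 lower calls. In senescent cells IMP1088 gave 3 and 7 and DDD86481 2 and 8, and in control cells each inhibitor gave 1 and 2. The shares called were 71.4%, 71.4%, 71.4%, 21.4% and 21.4%, against 68.5%, 44.4%, 43.2%, 33.7% and 36.6% of all genes. The medians were -0.20, -0.14, -0.29, -0.03 and -0.05 on the log2 scale.

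NKD2, an antagonist of WNT signalling, held 10.2, 8.25 and 6.87 CPM in control and 16.8, 18.2 and 14.9 CPM in senescent cells with DMSO (0.97 ± 0.27, adjusted p = 0.00374). In senescent cells it fell to 2.79, 2.35 and 0.953 CPM with IMP1088 (-2.97 ± 0.32, adjusted p = 3.76e-07) and 2.46, 2.51 and 0.859 CPM with DDD86481 (-3.01 ± 0.32, adjusted p = 3.67e-07), below every control library. In control cells it was called with neither inhibitor. PRKG2, a cyclic GMP-dependent kinase, moved in opposite directions in the 2 states. In control cells it rose from 1.65, 1.53 and 1.19 CPM to 3.81, 3.12 and 3.55 CPM with IMP1088 (1.19 ± 0.18, adjusted p = 4.41e-05) and 3.81, 3.53 and 3.79 CPM with DDD86481 (1.28 ± 0.18, adjusted p = 2.03e-05). In senescent cells it fell from 4.69, 3.86 and 3.63 CPM to 2.53, 2.40 and 2.19 CPM (-0.75 ± 0.18, adjusted p = 0.00196) and 2.18, 1.83 and 1.47 CPM (-1.10 ± 0.19, adjusted p = 7.05e-05).

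VSNL1, a neuronal calcium sensor protein like HPCAL1, fell with both inhibitors in both states, by 1.67 ± 0.24 and 2.15 ± 0.25 on the log2 scale in senescent cells (adjusted p = 8.81e-06 and 8.08e-07) and by 1.65 ± 0.26 with IMP1088 in control cells (adjusted p = 5.52e-05). Among the enzymes, METAP1D, the mitochondrial methionine aminopeptidase, fell in senescence from 6.85, 6.28 and 5.92 CPM to between 0.926 and 1.87 CPM (-2.13 ± 0.23, adjusted p = 5.16e-08). ACSL5, an acyl-CoA synthetase, rose in senescent cells from 5.56, 4.79 and 5.93 CPM to 9.31, 12 and 10.8 CPM with IMP1088 (0.97 ± 0.14, adjusted p = 1.45e-05) and 9.28, 10.8 and 9.81 CPM with DDD86481 (0.86 ± 0.14, adjusted p = 5.83e-05). In control cells ACSL5 was called lower with IMP1088 (-0.53, adjusted p = 0.0117) and was not called with DDD86481 (-0.29, adjusted p = 0.139).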
